A study of Mus musculus with 20 samples.

Results

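The Cyp4a and Cyp4f omega-hydroxylases are a family of liver cytochrome P450 enzymes, and their 10 genes examined here were Cyp4a10, Cyp4a14, Cyp4a31, Cyp4a32, Cyp4a12a, Cyp4a12b, Cyp4f13, Cyp4f14, Cyp4f15 and Cyp4v3. They were found by symbol among the 55487 genes of the count table, and each symbol matched 1 gene. Liver RNA came from 20 female C57BL/6J mice that entered the study at 8 weeks of age and were 28 weeks old at sampling. Of these, 5 mice were fed chow throughout, and the other 15 started on a high-fat diet (HFD). These mice then received, for 10 weeks, an HFD in which 50% of the protein came from a test source. By the sample labels it was fishmeal made of salmon by-products (5 mice), salmon filet (6 mice) or beef (4 mice). The sources used here name no transgene, and diet was the treatment compared. The paper also reports vitamin drops in the drinking water, a glucose injection for a tolerance test before sampling, and isoflurane sedation at sampling. Each library was made from the liver of 1 mouse. Mouse 31 was labelled as fed salmon filet, while the column name of its counts gives beef. Grouped by column name, salmon filet and beef hold 5 mice each. The other mice labelled salmon are numbered 22 to 27, and those labelled beef 32 to 40. Which name is right could not be settled, and values are by label unless stated. The calls and fold changes of the members in comparisons with salmon or beef were also computed with mouse 31 as beef and without it. Chow-fed mice differed from the other groups in diet over the whole study, and not in the protein source alone. The test HFDs also differed from each other in more than the protein source. The paper gives them equal shares of protein, fat and carbohydrate, but differing contents of cholesterol, added soybean oil and polyunsaturated fat. Comparisons between HFD groups do not separate these from the protein source.

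Omega-hydroxylases add a hydroxyl group to the terminal carbon of a fatty acid or an eicosanoid, in the membrane of the endoplasmic reticulum and with electrons from cytochrome P450 reductase. Dehydrogenases then turn the product into a dicarboxylic acid, which is shortened in peroxisomes. The Cyp4a enzymes act mainly on medium and long-chain fatty acids, and Cyp4a10 and Cyp4a14 are classical targets of PPAR-alpha, the nuclear receptor that senses fatty acids in liver. The Cyp4f enzymes act on leukotrienes, other eicosanoids and long-chain fatty acids. Cyp4v3 is the mouse counterpart of human CYP4V2, a fatty acid hydroxylase linked to a retinal dystrophy. Cyp4a12a and Cyp4a12b are known as male-predominant genes.

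The coding bases of the haem-binding loop show how close the members are to each other. This loop holds the cysteine that binds the haem iron in every cytochrome P450, and 48 bases that contain it were read from the GENCODE M21 transcripts (GRCm38), 5′ to 3′. Capitals mark bases that differ from Cyp4a10. In each gene the 48 bases spanned an intron, in Cyp4a10 between chr4:115529496-115532555 on the plus strand.
Cyp4a10: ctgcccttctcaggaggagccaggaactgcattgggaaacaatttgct
Cyp4a31: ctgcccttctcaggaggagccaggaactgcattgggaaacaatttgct
Cyp4a32: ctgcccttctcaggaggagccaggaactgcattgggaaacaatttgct
Cyp4a14: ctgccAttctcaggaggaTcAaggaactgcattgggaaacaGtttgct
Cyp4a12a: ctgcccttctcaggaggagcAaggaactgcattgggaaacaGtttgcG
Cyp4a12b: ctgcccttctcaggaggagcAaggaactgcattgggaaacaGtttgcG
Cyp4f13: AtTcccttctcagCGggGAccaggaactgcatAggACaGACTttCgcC
Cyp4f14: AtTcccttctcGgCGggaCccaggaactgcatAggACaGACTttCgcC
Cyp4f15: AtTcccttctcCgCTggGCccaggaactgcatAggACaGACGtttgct
Cyp4v3: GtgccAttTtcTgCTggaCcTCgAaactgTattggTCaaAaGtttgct

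Cyp4a10, Cyp4a31 and Cyp4a32 were identical over this stretch, as were Cyp4a12a and Cyp4a12b. Over the whole coding sequence, Cyp4a10 was 97.18% identical to Cyp4a32 and 96.59% identical to Cyp4a31, but 76.79% identical to Cyp4a14. Cyp4a12a and Cyp4a12b were 98.49% identical, and Cyp4f14 and Cyp4f15 were 82.12% identical. The 6 Cyp4a members lie within chromosome 4 from 115299046 to 115621602, and the 3 Cyp4f members within chromosome 17 from 32685627 to 32947402. Cyp4v3 lies alone on chromosome 8, from 45304944 to 45333216. These positions are on GRCm38.

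This closeness limits what the counts can tell apart. Of the windows of 50 bases, the length of 1 read, in the longest coding transcript of each member, 46.8% in Cyp4a32, 30.5% in Cyp4a10 and 20.1% in Cyp4a31 occur unchanged in another Cyp4 gene. For Cyp4a12a and Cyp4a12b the shares were 48.9% and 49.5%. The paper gives paired reads, and the share of read pairs that fit several genes was not computed. How reads that fit several genes were counted is not given in the sources used here, so the levels of Cyp4a10, Cyp4a31 and Cyp4a32 are uncertain with respect to each other. For Cyp4a14 the share was 0.245%, and for the 3 Cyp4f members it was 2.45% to 2.97%. Cyp4v3 overlaps the predicted gene Gm45753 on the same strand, which had at most 4 counts in any library.

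The libraries held 42526234 to 70266136 reads counted on genes, and protein coding genes took 93.2% to 95.6% of them, apart from 84.3% in mouse 35 of the beef group. The liver label was borne out by the 6 hepatocyte markers, whose summed level was 84583 to 118560 CPM over all mice (CPM are counts scaled to library size). Markers of adipocytes were at or below 0.122 CPM in sum, with Adipoq, Plin1, Lep and Retn all under 0.1 CPM on average. The kidney markers Slc34a1, Kap and Slc22a6 were also under 0.1 CPM on average. The remaining kidney marker, Lrp2, had a mean of 0.446 CPM on HFD and 0.551 CPM in chow. Markers of B cells were called as lower in HFD-fed mice for 4 of 4 genes and markers of T cells for 2 of 4. Of all genes tested, 5.21% were called as lower by edgeR. The other T cell markers were not called, with log2 fold changes of -0.46 for Cd3e and 0.32 for Cd8a. In chow the summed levels of the B and T cell markers were at most 11.1 and 3.24 CPM. Among markers of other cell types, Alas2 of red blood cells (log2 fold change 0.71, adjusted p = 0.00602 in edgeR) and Cela1 of exocrine pancreas (0.77, adjusted p = 0.0057) were higher on HFD, and Sox9 of cholangiocytes (-0.61, adjusted p = 0.0301) and Clec4g of endothelial cells (-0.29, adjusted p = 0.00758) were lower. No other marker of these 4 lists was called. The other 3 pancreas markers, Prss2, Cpa1 and Pnlip, were under 0.1 CPM on average. Of the 4 endothelial markers, 3 had a negative log2 fold change, and Stab2 had 0.23 (adjusted p = 0.209 in edgeR). The part of these markers in the results on the members was not tested. None of the 6 hepatocyte markers passed the test between HFD-fed and chow-fed mice. In whole liver, fewer cells of a type and less RNA per cell cannot be told apart.

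Levels were compared between genes in TPM, a unit that takes the length of each gene into account. Cyp4a14 was the most abundant member, with a median of 1039.9 TPM over the 20 mice and a range from 531 to 2274 TPM. Cyp4a10 followed with a median of 576 TPM (268 to 1422 TPM). Cyp4f14, Cyp4v3 and Cyp4f15 formed a middle group, with medians of 202, 179 and 152 TPM. Their ranges overlapped, from 151 to 303 TPM for Cyp4f14, from 134 to 234 TPM for Cyp4v3 and from 118 to 184 TPM for Cyp4f15. Cyp4a32 had a median of 44.2 TPM, Cyp4f13 of 31.4 TPM and Cyp4a31 of 6.51 TPM. Cyp4a10 and Cyp4a14 together made up 57.9% to 84.3% of the summed TPM of the 10 genes, with a median of 71.9% over the 20 mice.

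**Figure D1:**
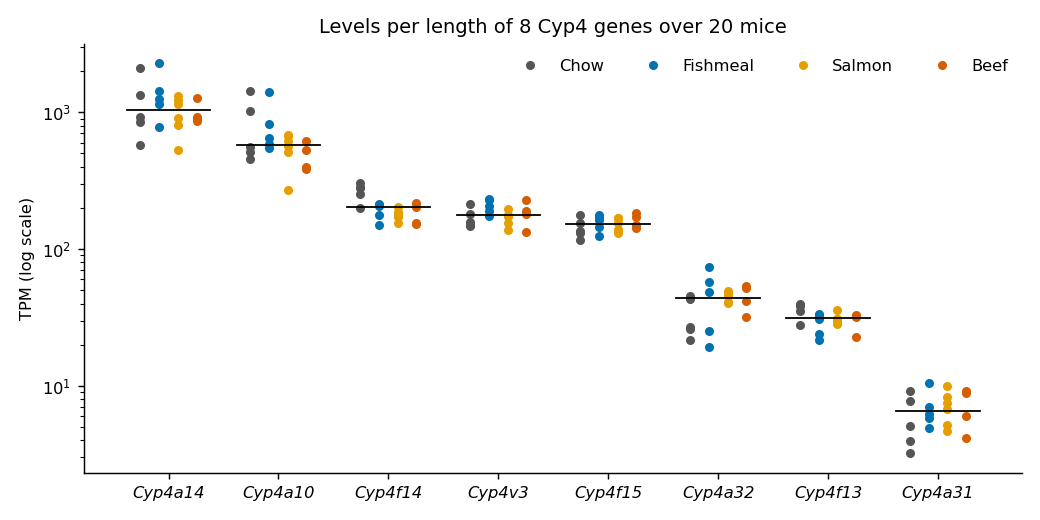
Level per length of 8 Cyp4 genes (TPM, log scale) in each of 20 mice, ordered by their median, with 1 point per mouse coloured by diet and a line at the median over all mice. Cyp4a14 and Cyp4a10 lie at medians of 1039.9 and 576 TPM, and Cyp4a31 is lowest at 6.51 TPM; Cyp4a12a and Cyp4a12b, with medians of 0.0468 and 0 TPM, are not drawn.

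Cyp4a12a and Cyp4a12b were close to absent in these female livers. Cyp4a12a had 0 to 17 counts per library in chow-fed mice, 0 to 4 with fishmeal, 0 to 9 with salmon filet and 0 to 13 with beef. Cyp4a12b had at most 6 counts in any library and 0 in all 6 salmon-fed mice. Neither gene passed the filter on low counts, so 8 of the 10 members were tested in each comparison.

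Cyp4f14, which acts on leukotrienes and long-chain fatty acids, was the only member that differed between HFD-fed and chow-fed mice. In chow-fed mice its level was 197, 251, 296, 254 and 237 CPM in mice 1, 2, 5, 7 and 10. With fishmeal it was 249.9, 191, 165, 203 and 138 CPM in mice 12, 13, 14, 16 and 20. With salmon filet the 6 mice ranged from 142 to 189 CPM around a median of 167 CPM. With beef the values were 147, 246, 144 and 205 CPM in mice 32, 35, 39 and 40. Fishmeal mice 12 and 16 and beef mice 35 and 40 overlapped with the chow-fed mice, of which mouse 1 was lowest. In CPM, all salmon-fed mice lay below every chow-fed mouse. By TPM these groups overlapped, with salmon mouse 26 at 202.3 TPM and chow mouse 1 at 201.2 TPM. The share of all genes without overlap between salmon and chow was not computed. On average the level was 247 ± 35.6 CPM in chow-fed mice (SD, n = 5) and 179.9 ± 35.1 CPM in HFD-fed mice (SD, n = 15).

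The difference in Cyp4f14 corresponded to 0.729 times the chow level, a log2 fold change of -0.46 with a standard error of 0.13, and 14 of 15 HFD-fed mice lay below the mean of the chow-fed mice. Its adjusted p was 0.0229 (edgeR's quasi-likelihood test, Benjamini-Hochberg over 17120 genes). Of all genes tested in HFD versus chow, 9.75% passed this threshold, 5.21% as lower and 4.54% as higher, so 1 of 8 members is a share close to that of all genes. The call was lost when any of 3 chow-fed mice was left out, since the adjusted p in edgeR was 0.0523 without chow mouse 2, 0.0792 without mouse 5 and 0.0548 without mouse 7. With the clock score described further on as a covariate, the log2 fold change was -0.48 and the adjusted p in edgeR 0.194.

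The remaining members did not pass the test in HFD versus chow, although several had low unadjusted p-values. Cyp4a32 had 16.7, 14.5, 26.8, 12.5 and 27.1 CPM in chow-fed mice 1, 2, 5, 7 and 10, and a median of 28.2 CPM over the 15 HFD-fed mice (14.5 to 42.0 CPM). Its log2 fold change was 0.49 (95% interval 0.05 to 0.93, adjusted p = 0.148 in edgeR). Cyp4f13, another Cyp4f hydroxylase, was at 61.7 ± 8.5 CPM in chow (SD, n = 5) and 53.1 ± 7.01 CPM on HFD (SD, n = 15), with a log2 fold change of -0.22 (95% interval -0.42 to -0.01, adjusted p = 0.172 in edgeR). In all, 3 of the 8 members had an unadjusted p under 0.05, against 24.4% of all genes tested. Both genes overlapped between the diets.

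The PPAR-alpha targets Cyp4a10 and Cyp4a14 varied widely within the chow group itself. Cyp4a10 was at 437, 348, 878, 436 and 1162 CPM in chow-fed mice 1, 2, 5, 7 and 10, and Cyp4a14 at 974, 539, 1406, 822 and 2115 CPM in the same mice. Mice 5 and 10 were therefore the highest for both genes, and they were also the highest of the chow-fed mice for Cyp4a31 (7.87 and 8.85 CPM) and Cyp4a32. Over the 15 HFD-fed mice Cyp4a10 had a median of 488 CPM (237 to 1105 CPM) and Cyp4a14 of 1139 CPM (578 to 2190.3 CPM). The log2 fold change on HFD was -0.34 for Cyp4a10 (95% interval -0.90 to 0.22, adjusted p = 0.473 in edgeR) and -0.02 for Cyp4a14 (95% interval -0.55 to 0.51, adjusted p = 0.978 in edgeR). Both intervals included 0.

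Cyp4a31, Cyp4f15 and Cyp4v3 had slightly higher means on HFD and overlapped with chow. Cyp4a31 was at 5.67 ± 2.55 CPM in chow (SD, n = 5) and 7.02 ± 1.93 CPM on HFD (SD, n = 15), which gave a log2 fold change of 0.31 (adjusted p = 0.435 in edgeR). Cyp4f15 was at 126 ± 22.4 CPM in chow (SD, n = 5) and 142 ± 16.0 CPM on HFD (SD, n = 15), which gave a log2 fold change of 0.17 (adjusted p = 0.309 in edgeR). Cyp4v3 was at 251 ± 47.7 CPM in chow (SD, n = 5) and 282 ± 43.8 CPM on HFD (SD, n = 15), which gave a log2 fold change of 0.16 (adjusted p = 0.428 in edgeR). Over the 8 members, 4 had a negative log2 fold change and the median was 0.07, against 0.00 over all genes tested.

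**Figure D2:**
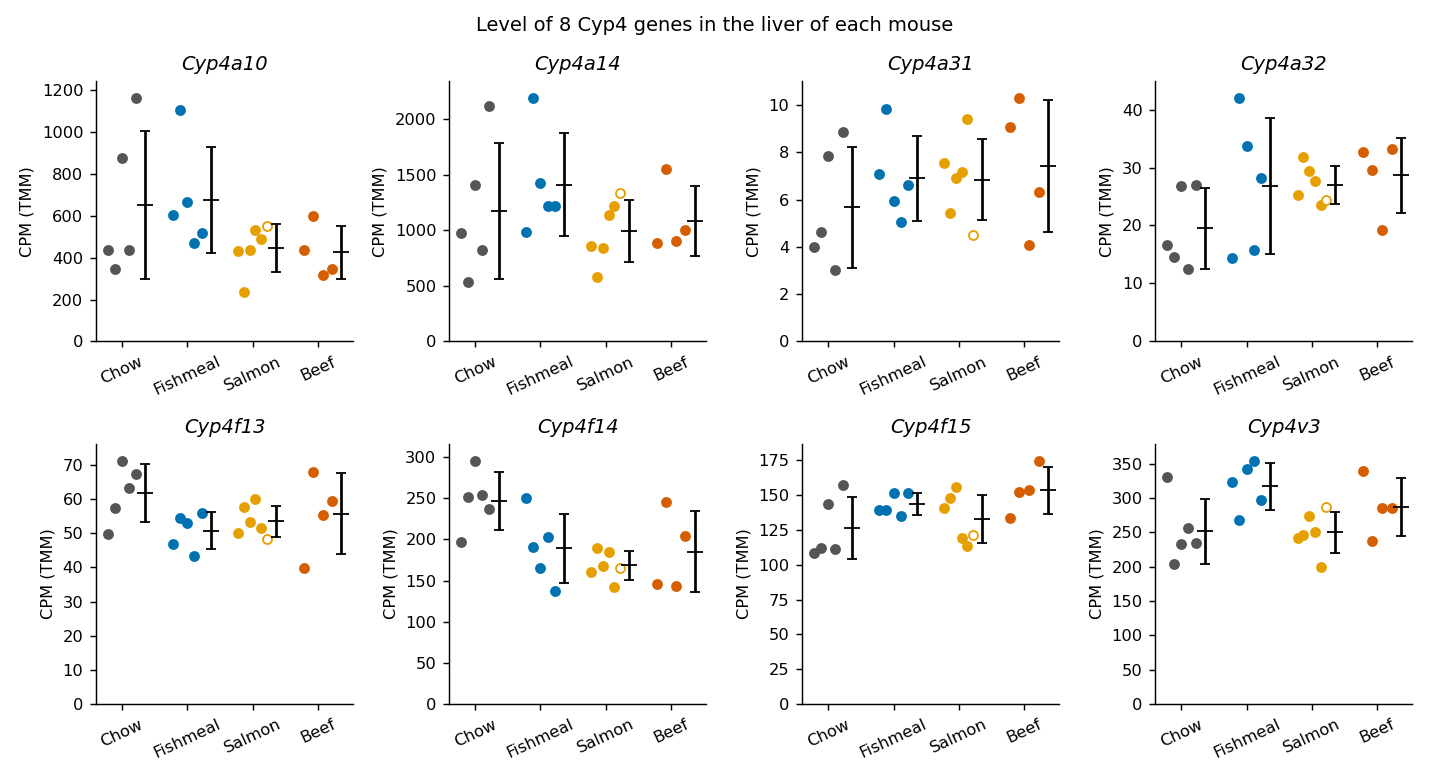
Level of 8 Cyp4 genes (CPM, TMM-normalised) in the liver of each mouse by diet as labelled, with 1 point per mouse and the mean ± SD of each group beside it; the open point is mouse 31. In CPM, all 6 salmon-fed mice lie below the 5 chow-fed mice for Cyp4f14, at 142 to 189 against 197 to 296 CPM. By TPM, which is not drawn here, these groups overlap. The other genes overlap between chow and each diet.

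Each HFD was also compared with chow on its own, with the same 5 chow-fed mice in each comparison. In fishmeal versus chow none of the 8 members was called by edgeR or by DESeq2, against 3.38% of all genes in edgeR, and 3 members had an unadjusted p under 0.05, against 16.9% of all genes. These were Cyp4f14 (log2 fold change -0.39, adjusted p = 0.205 in edgeR), Cyp4f13 (-0.29, adjusted p = 0.222) and Cyp4v3 (0.33, adjusted p = 0.218). Cyp4v3 was at 323, 269, 342, 354 and 297 CPM in fishmeal-fed mice 12, 13, 14, 16 and 20, and at 330.2, 204, 233, 256 and 234 CPM in chow-fed mice 1, 2, 5, 7 and 10. All fishmeal-fed mice lay above the other 4 chow-fed mice, and chow mouse 1 lay among them.

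In salmon versus chow, Cyp4f14 was called, with a log2 fold change of -0.54 and a standard error of 0.11 (adjusted p = 0.0156 in edgeR), and all 6 salmon-fed mice were below the mean of the chow-fed mice. Of all genes, 4.46% were called in this comparison, and 2.32% as lower, and 2 of the 8 members had an unadjusted p under 0.05, against 21.5% of all genes. The mean was 169 ± 17.2 CPM (SD, n = 6). With mouse 31 left out, which is also what its column name implies for this comparison, the log2 fold change was -0.54 and the adjusted p in edgeR 0.0294. With the clock score as a covariate the adjusted p in edgeR was 0.09, at a log2 fold change of -0.62. Cyp4a32 had a log2 fold change of 0.47 (95% interval 0.05 to 0.90, adjusted p = 0.167 in edgeR), and the other 6 members had adjusted p-values of 0.251 or more.

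In beef versus chow none of the 8 members was called by edgeR or by DESeq2, against 2.48% of all genes in edgeR, and 2 had an unadjusted p under 0.05, against 17.8%. Cyp4f14 again had a negative log2 fold change of -0.42 (95% interval -0.84 to -0.0018, adjusted p = 0.243 in edgeR). Cyp4a32 had a log2 fold change of 0.55 (adjusted p = 0.279 in edgeR). Cyp4a10 had the most negative value of the members, -0.63, with a 95% interval from -1.46 to 0.20. Since a call with salmon and none with beef or fishmeal does not show that the diets differ, the HFD groups were compared directly.

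No member was called in any comparison between HFD groups. In fishmeal versus salmon 0.157% of all genes were called, in fishmeal versus beef 0.00607%, and in salmon versus beef 0%, by edgeR, and DESeq2 also called no member in the 3 comparisons. An unadjusted p under 0.05 was found for 3 of the 8 members in fishmeal versus salmon, against 4.24% of all genes, for 1 in fishmeal versus beef, against 2.33%, and for 0 in salmon versus beef, against 3.71%.

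The members with low unadjusted p-values were Cyp4v3, Cyp4a10 and Cyp4a14, each with a higher mean in fishmeal-fed mice. Cyp4v3 had a mean of 317 ± 34.5 CPM with fishmeal (SD, n = 5), 249.9 ± 30.0 CPM with salmon filet (SD, n = 6) and 287 ± 41.8 CPM with beef (SD, n = 4). Its log2 fold change in fishmeal versus salmon was 0.34 (95% interval 0.09 to 0.59), with an adjusted p of 0.757 in edgeR. The groups overlapped, with salmon mouse 31 at 287 CPM above fishmeal mouse 13 at 269 CPM.

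Cyp4a10 was at 606, 1105, 667, 472 and 516 CPM in fishmeal-fed mice 12, 13, 14, 16 and 20, and ranged from 237 to 553 CPM with salmon filet around a median of 463 CPM. With beef it was at 436, 600.2, 316 and 347 CPM in mice 32, 35, 39 and 40. Fishmeal mouse 13 stood above all other HFD-fed mice for both Cyp4a10 and Cyp4a14. The log2 fold change of Cyp4a10 was 0.59 in fishmeal versus salmon (95% interval 0.05 to 1.123) and 0.66 in fishmeal versus beef (95% interval 0.03 to 1.29), with adjusted p-values of 0.999 and 1 in edgeR. For Cyp4a14 the log2 fold change was 0.50 in fishmeal versus salmon (95% interval -0.02 to 1.02, adjusted p = 0.999 in edgeR) and 0.38 in fishmeal versus beef.

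Salmon filet and beef gave closer values. The log2 fold changes of salmon versus beef ranged from -0.20 for Cyp4f15 to 0.08 for Cyp4a10 over the 8 members, and 7 were negative. The widest 95% interval was that of Cyp4a31, from -0.68 to 0.47. Ordered by the median CPM of the groups, fishmeal was highest for Cyp4a10, Cyp4a14 and Cyp4v3, beef for Cyp4a31, Cyp4a32 and Cyp4f15, and chow for Cyp4f13 and Cyp4f14. By median TPM, fishmeal was also highest for Cyp4a32 and Cyp4f15. Among neighbours in these orders, no pair of HFD groups passed the test for any member.

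**Figure D3:**
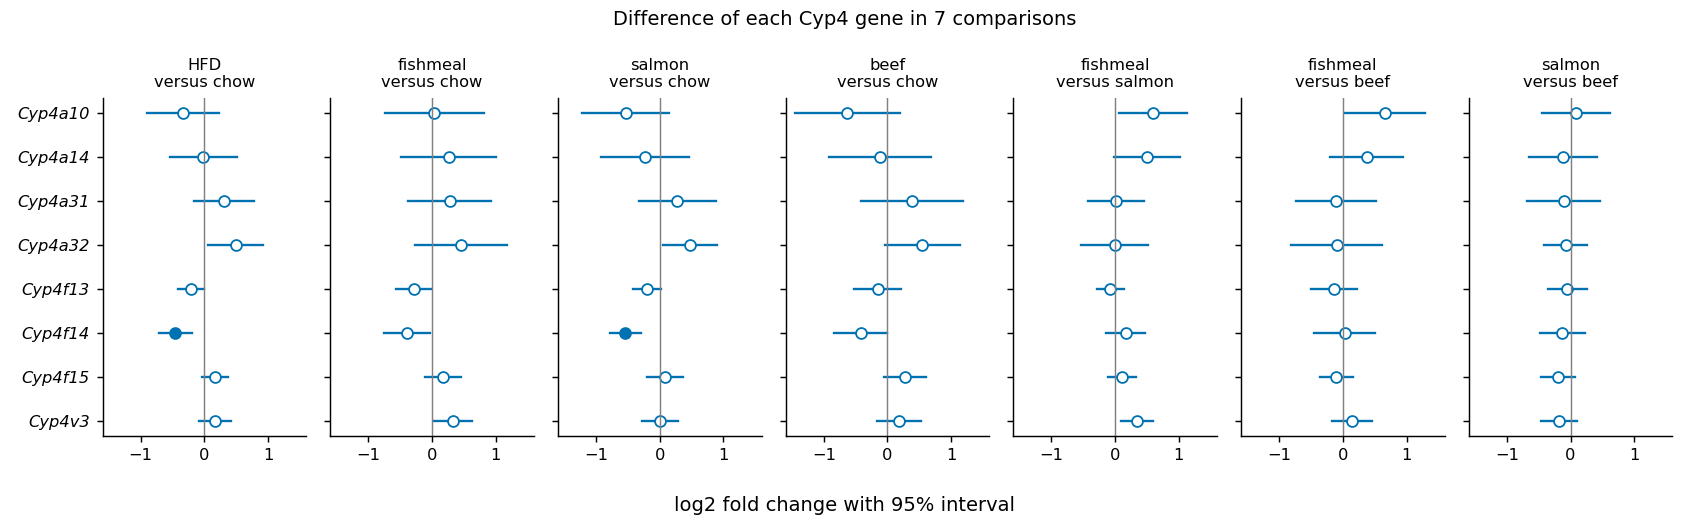
Log2 fold change of 8 Cyp4 genes in 7 comparisons, with 95% intervals as lines; filled points passed the threshold of an adjusted p under 0.05. The filled points are Cyp4f14 in HFD versus chow (-0.46) and in salmon versus chow (-0.54).

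Mice on HFD differed more from each other in the Cyp4a than in the Cyp4f members. The biological coefficient of variation, which is the spread between mice beyond counting error in edgeR, was 28.1% for Cyp4a10, 27.2% for Cyp4a14, 26.9% for Cyp4a31 and 27.2% for Cyp4a32 within the HFD groups. These values lay at percentiles 73.4 to 76.0 of 17029 genes, whose median was 19.6%. For Cyp4f13, Cyp4f14, Cyp4f15 and Cyp4v3 the values were 15.3%, 19.2%, 13.6% and 14.7%, at percentiles 28.5, 48.4, 16.9 and 24.2. These are descriptions with no test.

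Cyp4a10 and Cyp4a14 rose and fell together from mouse to mouse. Over the 15 HFD-fed libraries their log2 CPM had a Pearson r of 0.89 and a Spearman rho of 0.79, given as a description with no test. Both genes lie in the chromosome 4 cluster on opposite strands, and they share few reads, since the windows of Cyp4a14 that occur in another Cyp4 gene make up 0.245%. In contrast, Cyp4a10 had a Pearson r of 0.49 with Cyp4a31 and of 0.18 with Cyp4a32, its closest relatives in sequence. Among the Cyp4f members the values were 0.26 for Cyp4f13 with Cyp4f14, 0.37 for Cyp4f13 with Cyp4f15 and 0.20 for Cyp4f14 with Cyp4f15. Libraries share depth, time of day and diet group, and these correlations do not separate them.

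**Figure D4:**
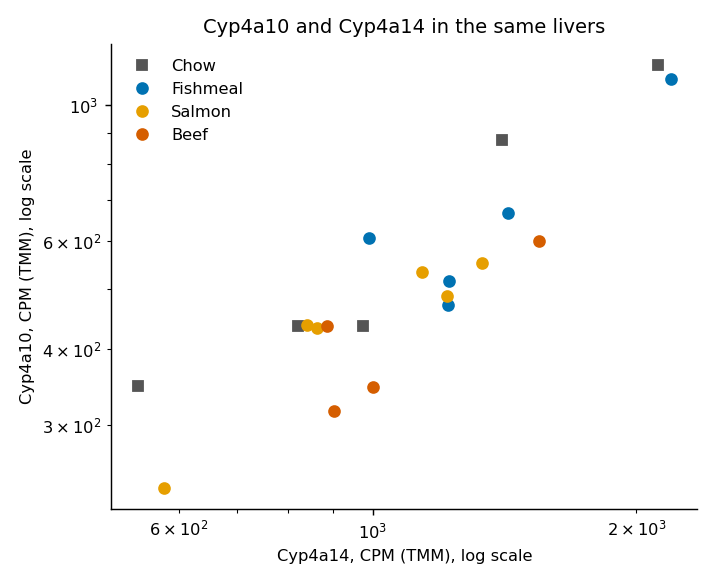
Level of Cyp4a10 against Cyp4a14 (CPM, both axes on a log scale) in each of 20 livers; squares are chow-fed and circles HFD-fed mice. Chow mouse 10 and fishmeal mouse 13 are highest for both genes, at 1162 and 1105 CPM of Cyp4a10 and 2115 and 2190.3 CPM of Cyp4a14.

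The genes with the most similar pattern over the 15 HFD-fed libraries were searched among 11526 protein coding genes with a mean of at least 1 CPM. For Cyp4a14 these were Acot1 (Pearson r = 0.92), Chrna2 (0.83) and Acsl1 (0.83), of which Acot1 and Acsl1 encode an acyl-CoA thioesterase and an acyl-CoA synthetase. For Cyp4a10 they were Ehhadh (0.81), a peroxisomal beta-oxidation enzyme, Acot1 (0.80) and Abhd6 (0.79), a lipid hydrolase. For Cyp4a31 they were Pmepa1 (0.89), Loxl3 (0.81) and Spsb1 (0.79), and for Cyp4a32 Klf11 (0.81), Syne2 (0.81) and Slc23a2 (0.77). No gene was thus named for more than 1 member apart from Acot1.

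For Cyp4f15, similar genes were Pard3 (Pearson r = 0.90) and Ngef (0.88). For Cyp4f14 they were Qpctl (0.90), Lrrc3 (0.87) and Rpn2 (0.85), and for Cyp4f13 Atp13a1 (0.94), Arsa (0.93) and Llgl1 (0.92). Cyp4v3 was most similar to Fmo5 (0.88), Nars2 (0.86) and Aadat (0.86). All are descriptions over 15 libraries, chosen as the highest of many correlations and given with no p.

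Livers in this study differed in the expression of circadian clock genes. It was summarised here by a score, the mean log2 CPM of Arntl, Npas2 and Clock minus that of Dbp, Nr1d1, Per3 and Tef. The score cannot separate the phase of the clock from other differences in the expression of these genes. In the chow group the score had a median of 2.74 and lay between 0.56 and 3.03. The fishmeal group had a median of -0.46 (-3.88 to 0.48), the salmon group of -0.14 (-4.22 to 1.92, the highest being mouse 31) and the beef group of -3.13 (-4.67 to -0.61). Chow-fed mice were thus mostly above HFD-fed mice, and clock score and diet cannot be fully told apart. The relation of each member to the score was therefore examined within the 15 HFD-fed mice, whose scores had no gap wider than 1.29.

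Cyp4f15 was the only member whose level was related to the clock score. With beef, Cyp4f15 was at 134, 152, 154 and 175 CPM in mice 32, 35, 39 and 40, whose scores were -0.61, -3.05, -3.22 and -4.67. With fishmeal it was at 139, 139, 152, 135 and 152 CPM in mice 12, 13, 14, 16 and 20, whose scores were -0.46, 0.13, -3.20, 0.48 and -3.88. With salmon filet, it was highest at 156 CPM in mouse 25, which had the lowest score of that group (-4.22), and lowest at 114 CPM in mouse 27 (-0.67). In each group the livers with the lowest scores had more Cyp4f15 RNA than the others, with exceptions among the mice whose scores were near 0.

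Over the 15 HFD-fed mice the Pearson r of Cyp4f15 with the score was -0.81 (permutation p = 0.00027, adjusted p = 0.00216 over 8 members) and the Spearman rho was -0.79 (permutation p = 0.00102, adjusted p = 0.00816), both two-sided. Without mice 40 and 25, the farthest from the median score, r was -0.73 (permutation p = 0.00507, adjusted p = 0.0406, n = 13). With values centred on the mean of each diet group, an alternative chosen after seeing the data, r was -0.77 (permutation within groups, p = 0.002, adjusted p = 0.016). A larger absolute r with the score was found for 1.02% of the 11526 protein coding genes. In the chow-fed mice, which did not enter this test, the 3 mice with scores of 2.74 to 3.03 had 108 to 112 CPM of Cyp4f15, and mice 5 and 10, with scores of 0.56 and 1.87, had 143 and 157 CPM.

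The next largest relation was that of Cyp4f13, with a Pearson r of -0.50 (permutation p = 0.0548, adjusted p = 0.219) and a Spearman rho of -0.50 (permutation p = 0.06, adjusted p = 0.24), and 14.4% of genes had a larger absolute r. Cyp4f14, the member that was lower on HFD, had a Pearson r of 0.05 within HFD-fed mice (permutation p = 0.87, adjusted p = 0.888). The 4 tested Cyp4a members had Pearson r values from -0.28 to 0.31, with adjusted p-values of 0.626 or more, and Cyp4v3 had -0.05. With the score as a covariate, the log2 fold change of Cyp4f15 turned from 0.17 to -0.10 in HFD versus chow, with an adjusted p of 0.78 in edgeR.

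**Figure D5:**
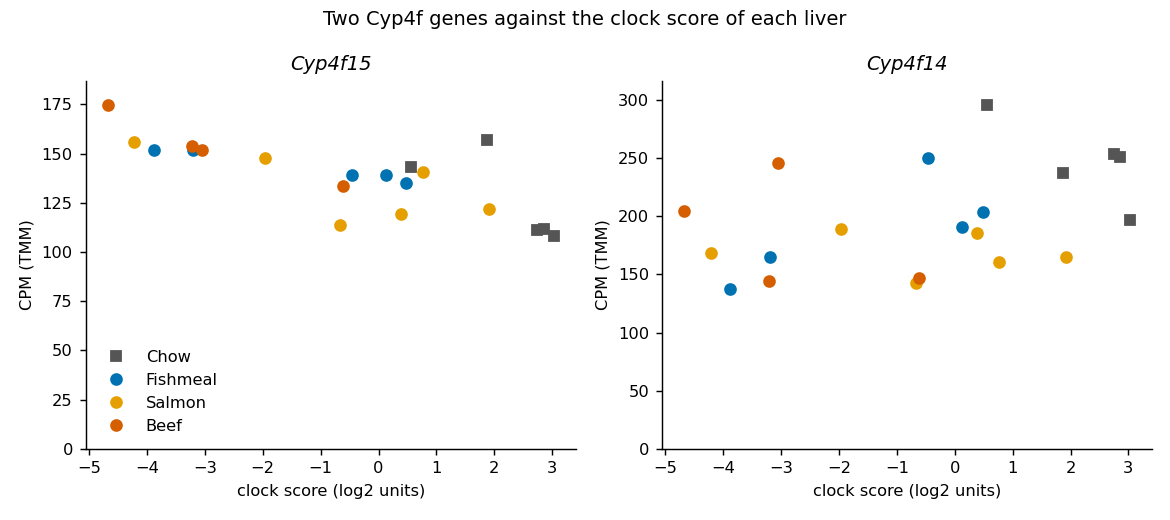
Level of Cyp4f15 (left) and Cyp4f14 (right) in CPM against the clock score (log2 units) of each of 20 livers; squares are chow-fed and circles HFD-fed mice, coloured by diet. Cyp4f15 falls with the score (Pearson r = -0.81 over 15 HFD-fed mice), while Cyp4f14 shows no such slope (r = 0.05) and is higher in chow.

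Bases before the gene start are shown for the member lower on HFD (Cyp4f14), the member related to the clock score (Cyp4f15) and the member with an E-box there (Cyp4v3). They are RefSeq promoter sequences on GRCm38.p6, 5′ to 3′ along each gene, without bases that GENCODE M21 places in a transcript. The region of Cyp4f14 is chr17:32917343-32917592 on the minus strand, that of Cyp4f15 chr17:32685409-32685626 on the plus strand, and that of Cyp4v3 chr8:45333217-45333413 on the minus strand. Capitals mark AGGNCA, read on the opposite strand, in Cyp4f15, and CACGTG in Cyp4v3. The bases of Cyp4v3 also hold an AGGNCA on the strand shown, left in lower case, and those of Cyp4f14 hold none.
Cyp4f14: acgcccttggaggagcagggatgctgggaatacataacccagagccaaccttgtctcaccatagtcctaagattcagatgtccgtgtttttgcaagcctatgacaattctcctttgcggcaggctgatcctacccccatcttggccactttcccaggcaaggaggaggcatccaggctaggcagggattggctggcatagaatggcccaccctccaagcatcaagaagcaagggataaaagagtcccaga
Cyp4f15: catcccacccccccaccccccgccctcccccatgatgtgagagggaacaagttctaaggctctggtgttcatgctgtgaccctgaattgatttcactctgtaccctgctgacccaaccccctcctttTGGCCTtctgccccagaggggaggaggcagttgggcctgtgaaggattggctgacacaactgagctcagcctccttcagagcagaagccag
Cyp4v3: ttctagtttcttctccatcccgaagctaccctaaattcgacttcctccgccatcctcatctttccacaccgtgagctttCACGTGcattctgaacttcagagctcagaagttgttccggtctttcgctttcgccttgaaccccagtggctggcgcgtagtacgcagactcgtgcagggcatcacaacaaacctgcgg

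Both strands of the 250 bases before each RefSeq start were searched, for the 5 members with an entry. These were Cyp4a32, Cyp4f13, Cyp4f14, Cyp4f15 and Cyp4v3. The other members, Cyp4a10 and Cyp4a14 among them, had no entry and were not searched. CACGTG, the E-box that the clock proteins CLOCK and BMAL1 are known to bind, was found in Cyp4v3 and in 6.02% of 32851 promoters. AGGTCA, the hexamer of many nuclear receptors, was found in none of the 5 members searched and in 14.0% of promoters. The looser AGGNCA was found in Cyp4f13, Cyp4f14, Cyp4f15 and Cyp4v3 and in 51.3% of promoters. The matches in Cyp4f14 lay before another RefSeq start of the gene, outside the bases printed above. Every AGGTCA is also an AGGNCA. Cyp4v3, with the E-box, had a Pearson r of -0.05 with the clock score, and Cyp4f15, with none in this window, had -0.81. A match is a description of letters and not a bound site.

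The other genes of the pathway were examined as lists in HFD versus chow, where 9.75% of all genes were called. Of the other Cyp4 genes, 5 of 10 had enough counts. These 5 all had a negative log2 fold change, with a median of -0.31. Among them 1 was called, Cyp4b1 (log2 fold change -0.34, adjusted p = 0.0219 in edgeR), a hydroxylase known mainly from lung. None of the 4 electron donors was called by edgeR (1 had an unadjusted p under 0.05), and the reductase Por had a log2 fold change of -0.05 ± 0.24 (SE). Among 6 dehydrogenases that can carry the products onward, 1 was lower, Adh7 (-0.77, adjusted p = 0.00423 in edgeR), at a mean of 1.502 CPM on HFD and 2.56 CPM in chow. The median log2 fold change of the 6 was -0.04, and 4 were negative. Aldh3a2 had a mean of 540 CPM on HFD and 410 CPM in chow (0.40, adjusted p = 0.0832 in edgeR).

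Of 14 genes for peroxisomal oxidation, 2 were higher on HFD and 0 lower, with a median log2 fold change of 0.22 over the list against 0.00 over all genes. Scp2, a sterol carrier and thiolase, rose (log2 fold change 0.42, adjusted p = 0.00765 in edgeR). Of 20 other PPAR-alpha targets, 2 were higher and 1 lower, with a median of 0.15. The fatty acid transporter Cd36 rose (log2 fold change 0.96, adjusted p = 0.00391 in edgeR), as did Vnn1, which encodes pantetheinase (1.08, adjusted p = 0.0156). Pdk4, the kinase that restrains pyruvate oxidation, fell (-1.29, adjusted p = 0.0119). In comparisons between HFD groups, no gene of these lists was called by edgeR.

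The receptor itself, Ppara, was higher on HFD, at a mean of 174 CPM against 96.4 CPM in chow (log2 fold change 0.85, adjusted p = 0.0288 in edgeR), and Ppard was lower (-1.25, adjusted p = 0.00811). These were the genes called among 9 receptors and coactivators. Of 12 core clock genes tested, 7 were higher and 2 lower on HFD, led by Dbp (4.70, adjusted p = 0.00423 in edgeR), Ciart (3.29, adjusted p = 0.0282), Per3 (2.62, adjusted p = 0.0169) and Tef (1.80, adjusted p = 0.00417). The part of the clock in the changes of Ppara and Ppard was not tested.

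Genes that differ between male and female liver were listed because Cyp4a12a and Cyp4a12b are male-predominant. Of 6 male-biased genes, 2 were lower on HFD, Hsd3b5 (log2 fold change -2.29, adjusted p = 0.0034 in edgeR), at 0.147 CPM against 0.721 CPM in chow, and Elovl3 (-1.04, adjusted p = 0.0336), a fatty acid elongase. Of 8 female-biased genes, 1 was lower and 2 were higher, the latter being Cyp2b13 (0.99, adjusted p = 0.000584 in edgeR) and Cyp2b9 (0.42, adjusted p = 0.0104). Cyp4a12a and Cyp4a12b themselves were below the count filter in all groups.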

How the data were processed

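Liver RNA of 20 mice was sequenced with a strand-specific mRNA protocol. The authors trimmed reads with BBDuk, mapped them with HISAT2 1.2.1 and counted them by gene of Ensembl using featureCounts 1.4.6-p1, as the submitters' processing notes give them, and deposited raw counts and a table of TPM values. Strand and multi-mapping settings are not given in the sources used here. Counts were tested with edgeR 4.0 in R 4.3 (TMM factors, filterByExpr with minimum count 10, two-sided quasi-likelihood F-tests, Benjamini-Hochberg over all genes tested, threshold 0.05). CPM used TMM factors over all libraries, and log2 CPM a prior count of 2. The 95% intervals are the log2 fold change ± the t quantile times the standard error from the F statistic. The quantile took the number of mice compared minus 2 as its degrees of freedom, while edgeR's p-values use others. An interval can thus include no difference at an unadjusted p under 0.05. Each mouse is 1 replicate. The clock relation used 100000 permutations. Alternatives were DESeq2, other normalisations and filters, limma on log2(TPM + 1) for genes averaging 0.5 TPM or more, a fit on all 4 groups, the clock score, other groupings of mouse 31, and each mouse left out. The members and lists were chosen with earlier results of these data known. All 10 members are named, with the 3 most similar genes of each member and at most 4 genes per list. Some genes that this rule picks are not reported here. Scripts were tested on simulated data.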

Additional observations from a re-analysis of the deposited data

Results flagged for a closer look

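Of the 39 sets of values of a member within a diet group, 3 held a mouse whose gap to its nearest neighbour was large for the range of its group, by Dixon's criterion, while chance marks about 1 set in 20. Cyp4a14 was at 1548 CPM in beef mouse 35, above 887 to 999.7 CPM in the other 3 beef-fed mice, with a gap of 0.8298 of the range against a limit of 0.829. Mouse 35 is also the library with 84.3% of its counts on protein coding genes. On the TPM scale, which was not scaled by TMM, Cyp4a14 was at 1280.1 TPM in mouse 35 and at 868 to 924 TPM in the other beef-fed mice. Cyp4a12a was at 0.164 CPM (9 counts) in salmon mouse 26, and Cyp4a12b at 0.0400 CPM (2 counts) in beef mouse 40, where the other 3 beef-fed mice had 0. The last 2 values are of a few counts each.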

How the results depend on the processing

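The number of members called was recomputed 143 times over the 7 comparisons and stayed the same in 138. In HFD versus chow it was 1 and became 0 with the clock score as a covariate, and with each mouse left out it ranged from 0 to 1. In salmon versus chow it was 1 and became 0 with the clock score. Without the clock score, Cyp4f14 in HFD versus chow kept an adjusted p of 0.0036 to 0.0326 in 7 other settings, and in salmon versus chow of 0.000135 to 0.049 in 9. Of 1144 recomputed log2 fold changes, 60 changed sign, none of them called, and 40 of these came from leaving out a mouse. With the clock score the values that changed sign were -0.13 for Cyp4a10, -0.0723 for Cyp4a32 and -0.0881 for Cyp4f15 in fishmeal versus chow, 0.0284 for Cyp4a14 and -0.10 for Cyp4f15 in HFD versus chow, -0.13 for Cyp4f15 and 0.0476 for Cyp4v3 in salmon versus chow, and -0.37 for Cyp4f15 in beef versus chow. With limma they were 0.0184 for Cyp4a14 in HFD versus chow, -0.0346 for Cyp4a31 in fishmeal versus salmon, and 0.0186, 0.0359 and 0.0596 for Cyp4a31, Cyp4a32 and Cyp4f13 in salmon versus beef. With mouse 31 by its column name they were -0.10 for Cyp4a31 in fishmeal versus salmon (also without mouse 31), 0.00879 for Cyp4a31 in fishmeal versus beef, and -0.0697, 0.10 and 0.0164 for Cyp4a10, Cyp4a31 and Cyp4f13 in salmon versus beef. With genes of at least 1 count, Cyp4v3 in salmon versus chow was 0.0013.

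With each mouse left out, Cyp4a10 ranged from -0.21 to 0.35 in fishmeal versus chow and from -0.0297 to 0.29 in salmon versus beef. Cyp4a14 ranged from -0.20 to 0.31 in HFD versus chow, -0.34 to 0.21 in beef versus chow, -0.21 to 0.10 in salmon versus beef and -0.41 to 0.10 in salmon versus chow. Cyp4a31 ranged from -0.31 to 0.0939 in fishmeal versus beef, -0.17 to 0.13 in fishmeal versus salmon and -0.31 to 0.0732 in salmon versus beef. Cyp4a32 ranged from -0.31 to 0.0677, -0.24 to 0.14 and -0.22 to 0.0047 in the same comparisons. Cyp4f13 ranged from -0.19 to 0.0515 in salmon versus beef, Cyp4f14 from -0.0827 to 0.20 in fishmeal versus beef and -0.23 to 0.0311 in salmon versus beef, and Cyp4v3 from -0.0677 to 0.11 in salmon versus chow. The correlation of Cyp4v3 with the clock score turned to 0.14 on values centred on group means, and the other 7 members kept their sign and their side of the threshold. The cause of these changes was not tested. Mean TPM with mouse 31 by its column name moved by at most 1 SD for 20 of 20 values. Clock scores, correlations, ratios and lists were computed with mouse 31 as labelled. Group order by CPM and TPM differed for Cyp4a32, Cyp4f14 and Cyp4f15. No paired analysis was possible because the mouse numbers are not shared between groups. Nothing shows which mice shared a cage. The p-values of the comparisons weigh group differences against the spread between these mice, taken as independent.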

Other observations

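The counts of Cyp4a10 relative to Cyp4a14 in the same library were chosen for a look after their values were seen, and are given with no test. In chow-fed mice the ratio was 0.448 to 0.645 (median 0.549), with fishmeal 0.387 to 0.612 (median 0.467), with salmon filet 0.401 to 0.520 (median 0.442) and with beef 0.347 to 0.492 (median 0.369). The ranges overlapped. Cyp4a32, which shares 34.8% of its windows of 50 bases with Cyp4a10, had 2.33% to 4.17% of the counts of Cyp4a10 in chow-fed mice and 2.39% to 13.4% in HFD-fed mice. The highest share was that of salmon mouse 23, which had the lowest Cyp4a10 level of all 20 mice, at 237 CPM. The counts of Cyp4a32 were therefore not a fixed share of those of Cyp4a10.

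The ratio of the counts of Cyp4f14 to those of Cyp4f15, both on chromosome 17, was not tested against diet or the clock score. It was 1.51 to 2.28 in chow-fed mice (median 2.06), 0.908 to 1.79 with fishmeal (median 1.37), 1.08 to 1.55 with salmon filet (median 1.2665) and 0.937 to 1.62 with beef (median 1.133).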
